A study of Drosophila melanogaster with 2 samples.

Results

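The proteasome subunit genes of Drosophila melanogaster were examined for binding of Oc. They were taken as every protein-coding gene whose symbol starts with Prosalpha, Prosbeta, Rpn or Rpt followed by a digit, which gave 48 of the 13968 protein-coding genes on the 7 chromosome arms used. In 32 of them the symbol ends in its number, and these are called canonical here. The other 16 carry a T or an R after the number: Prosalpha1R, Prosalpha3T, Prosalpha4T1, Prosalpha4T2, Prosalpha6T, Prosbeta2R1, Prosbeta2R2, Prosbeta4R1, Prosbeta4R2, Prosbeta5R1, Prosbeta5R2, Rpt3R, Rpt4R, Rpt6R, Rpn12R and Rpn13R.

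The 26S proteasome degrades proteins tagged with ubiquitin in nearly every cell. Its barrel-shaped 20S core consists of outer rings of alpha subunits, which gate the entrance, and inner rings of beta subunits, of which beta1, beta2 and beta5 carry the proteolytic sites. The 19S particle caps the core. Its base holds a ring of Rpt ATPases that unfold substrates, the scaffold subunit Rpn2, and Rpn1, Rpn10 and Rpn13, which bind ubiquitin or its carriers. Its lid holds further Rpn subunits and removes ubiquitin through Rpn11. The T and R genes encode variant copies of single subunits, many of which are known from the testis. Oc, the product of ocelliless, acts in patterning the embryonic head and binds DNA through a homeodomain, whose family prefers sites with the core TAATCC.

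Binding was measured by ChIP-seq, which recovers and sequences the DNA bound by a protein. The chromatin came from whole embryos aged 2 to 14 hours of a transgenic fly line that stably carries Oc with GFP at its C-terminus, sheared by sonication and precipitated through the GFP tag. There was 1 group of 2 libraries, biological replicates 2 and 3, and both shared 1 control alignment. Whole embryos mix all cell types, so binding in a few cells and weak binding in many cannot be told apart, and the labels do not say which sequences drive the transgene. The deposited lists held 30000 peaks from replicate 2, 30000 from replicate 3, 30000 from the pooled alignments and a shorter IDR set. IDR keeps peaks by their reproducibility between replicates, and here the set was exactly the pooled peaks of highest signal, down to a signal of 146. How deeply each library was sequenced is not known here. A summit is the deposited point of highest signal in a peak, and a promoter summit is one within 500 bp of any annotated start of a gene. Signal values are the authors' own on a scale that is not stated, so each is given with its rank in its list.

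An IDR summit lay within 500 bp of the start of 4 of the 48 proteasome genes (8.33%, 95% Wilson interval 3.29 to 19.6%), set beside 14.7% of all protein-coding genes. These were Rpn6, Rpn1, Rpn3 and Rpn5, all of the 19S particle. With the longer pooled list 14 of 48 (29.2%, 18.2 to 43.2%) had a promoter summit, beside 32.5% of all genes. The share of all genes lies inside both intervals. All 14 were canonical genes, 14 of 32 (43.8%, 28.2 to 60.7%). The pooled list was used at full length, with no cut on the deposited q-values. The -log10 q-value, lower where the evidence is weaker, was 3.92 at the Rpn6 summit. It was 0.641 at the Rpn7 summit, 0.541 at the Prosalpha5 summit and 0.403 at the Rpt2 summit. A pooled promoter summit alone therefore does not establish binding. None of the 16 T and R genes had a pooled promoter summit, which allows a share of up to 18.8% when 3 counts are taken as the limit of a count of 0. With 1 group and no second condition, no test between conditions was possible, and differences between gene groups were not tested.

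Within the 14 genes the strength of the summits spanned the list from close to its top to close to its end. The sequences at Rpn1 and Rpn3 are printed as examples of strong summits of the IDR set, and those of Rpn2, Prosalpha4 and Rpn7 as examples of weaker summits below the IDR set. Each is the stretch within 50 bp of the summit that lies outside annotated untranslated regions, from the RefSeq Release 6 genome (dm6), 5′ to 3′ on the strand of the gene. The printed stretches hold neither TAATCC nor its variant TAAGCC on either strand, so they have no capitals. This follows from the choice of examples: TAATCC is within 50 bp of the Rpn6 summit and TAAGCC within 50 bp of the Rpn9 summit, which are not printed.
Rpn1, chr3L:19914930-19915030, plus strand: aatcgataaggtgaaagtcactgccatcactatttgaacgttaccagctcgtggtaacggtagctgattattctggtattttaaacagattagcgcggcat
Rpn3, chr2L:19051699-19051789, plus strand: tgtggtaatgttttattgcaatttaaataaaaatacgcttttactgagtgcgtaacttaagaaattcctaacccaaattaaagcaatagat
Rpn2, chr3R:29153292-29153392, plus strand: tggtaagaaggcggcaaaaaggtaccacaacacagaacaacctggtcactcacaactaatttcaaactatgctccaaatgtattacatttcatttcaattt
Prosalpha4, chrX:16275963-16276063, plus strand: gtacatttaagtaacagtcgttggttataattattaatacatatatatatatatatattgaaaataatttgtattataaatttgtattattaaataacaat
Rpn7, chr3R:22462073-22462173, minus strand: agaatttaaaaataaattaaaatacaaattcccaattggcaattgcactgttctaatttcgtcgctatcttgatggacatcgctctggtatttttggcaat
The stretches run from a mixed composition at Rpn1 to almost pure A and T at Prosalpha4. Over the full windows of 50 bp on each side, the 15 promoter summits had a median GC content of 31.7%, from 13.9% at Prosalpha4 to 49.5% at Rpt5. The median over 5709 pooled summits within 500 bp of any protein-coding start was 43.6%, with quartiles of 34.7% and 50.5%.

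**Figure D1:**
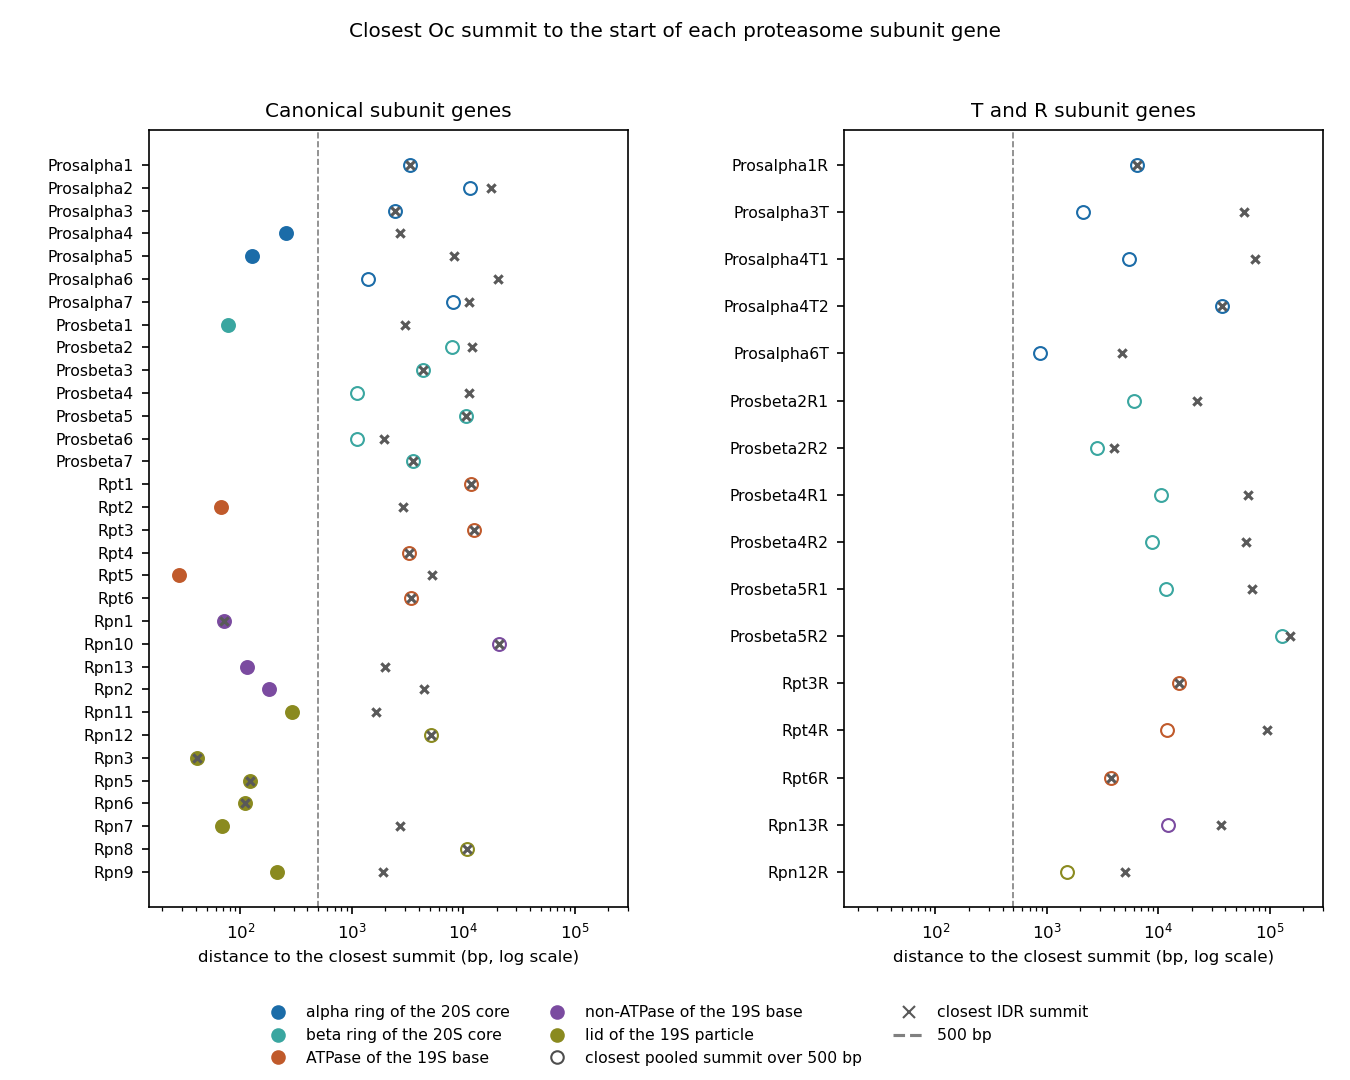
Distance from the start of each subunit gene to the closest summit (bp, log scale), canonical genes on the left and T and R genes on the right, coloured by role. Circles are the closest pooled summit, filled within 500 bp, and crosses the closest IDR summit. The 14 filled circles are all in the canonical panel, and the closest pooled summits of the T and R genes lie from 860 to 128980 bp away.

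In the lid of the 19S particle, 6 of the 8 canonical genes had a pooled promoter summit and 3 an IDR summit, beside 32.5% and 14.7% of all genes. Rpn6 (FBgn0028689), a structural lid subunit, had the strongest: its peak had a signal of 582 in the pooled list, rank 382 of 30000, with 326 in replicate 2 (rank 358) and 241 in replicate 3 (rank 504). The replicate summits lay 1 and 2 bp from the pooled summit, which is 111 bp upstream of the closest annotated Rpn6 start and inside an intron of its longer transcript. The start of ave, a signalling adaptor, was 139 bp from the same summit on the other side, so Rpn6 was the nearer gene by a small margin.

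Rpn3 (FBgn0261396), another lid subunit, had a summit 41 bp upstream of its start, at position 19051749 of arm 2L. Its signal was 240 in the pooled list (rank 2448), 131 in replicate 2 (rank 2444) and 108 in replicate 3 (rank 2841). The 3 ranks are close to each other, and the summit was nearest to Rpn3, with the start of l(2)37Bb 137 bp away. Rpn5 (FBgn0028690), also a lid subunit, was at the edge of the IDR set: its summit had a pooled signal of 146, rank 5822 of 30000, at the lowest signal of that set. The replicates differed here, with 97.3 in replicate 2 (rank 4170) and 51.1 in replicate 3 (rank 9878). The summit lay 122 bp upstream of Rpn5 and 13 bp from the start of Hat1, a histone acetyltransferase gene, in whose 5′ untranslated region it falls.

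Just below the IDR set came the lid subunit gene Rpn9 (FBgn0028691). Its summit had a signal of 116 in the pooled list (rank 8138), 49.7 in replicate 2 (rank 11594) and 64.8 in replicate 3 (rank 7017). It lay 214 bp upstream of the closest Rpn9 start, in an intron of a longer Rpn9 transcript. The remaining lid summits were weak. Rpn11, the deubiquitinating subunit, had a pooled summit of signal 68.4 (rank 15567) 293 bp upstream, and the closest replicate summits lay 130 bp away in replicate 2 and 481 bp away in replicate 3, beyond the 100 bp within which summits were counted as shared. Rpn7 had a pooled summit of signal 46.9 (rank 22790) 69 bp upstream and no replicate summit within 100 bp. Rpn8 and Rpn12 had no pooled promoter summit, and their closest lay 10809 and 5167 bp away.

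In the base, 3 of the 4 canonical non-ATPase genes had a pooled promoter summit and 1 an IDR summit, beside 32.5% and 14.7% of all genes. Rpn1 (FBgn0028695), the scaffold subunit that receives ubiquitin carriers, had a summit 71 bp upstream of its start at position 19914980 of arm 3L, in intergenic sequence. Its signal was 398 in the pooled list (rank 872), 234 in replicate 2 (rank 740) and 169 in replicate 3 (rank 1104). The next protein-coding start, that of Mtr3, was 1265 bp away. Among the 4 genes with an IDR promoter summit, Rpn1 alone has no other protein-coding start within 500 bp. Rpn2, the second large scaffold, had a summit 182 bp upstream with a signal of 89.6 in the pooled list (rank 11442), 35.8 in replicate 2 (rank 17314) and 59.3 in replicate 3 (rank 8060). The Rpn2 summit was nearer to Slbp, the gene of the histone mRNA stem-loop binding protein, at 76 bp. Rpn13, a ubiquitin receptor, had 2 weak summits, 115 bp upstream with a pooled signal of 55.9 (rank 19188) and 378 bp upstream with 72.1 (rank 14698). Replicate 3 held both, with signals of 61.9 and 46.2, and replicate 2 held neither within 100 bp. Rpn10, the other ubiquitin receptor, had its closest pooled summit 20718 bp away, the farthest of the 32 canonical genes.

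Of the 6 canonical Rpt ATPase genes, 2 had a pooled promoter summit (33.3%, 9.68 to 70.0%), close to the 32.5% of all genes, and none an IDR summit, beside 14.7%. The Rpt5 summit lay 28 bp upstream of its start, the closest of all 48 genes, with a signal of 97.3 in the pooled list (rank 10299), 59.3 in replicate 2 (rank 9129) and 41.2 in replicate 3 (rank 12954). It was 14 bp from the start of RanBP3 on the opposite strand and was therefore counted as nearest to that gene. The Rpt2 summit, 67 bp upstream and 14 bp from the start of CG13599, had a pooled signal of 35.3 at rank 29390 of 30000, and neither replicate list held it. Strong peaks did lie some way from other ATPase genes: the closest pooled summit to Rpt1 was 11619 bp away with a signal of 544, and that to Rpt4 was 3230 bp away with 340. The nearest start to these 2 summits was that of another gene, Rdh1 for the summit by Rpt1 and Top3beta for the summit by Rpt4.

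Among the 14 canonical genes of the 20S core, 3 had a promoter summit in the pooled list (21.4%, 7.57 to 47.6%), an interval that holds the 32.5% of all genes, and none had one in the IDR set, beside 14.7%. Of the 12 canonical Rpn genes, 9 had one in the pooled list (75.0%, 46.8 to 91.1%), an interval above the share of all genes. In replicate 2 alone 7 of the 12 had one, beside 32.9% of all genes, and in replicate 3 alone 9, beside 37.4%. For 6 of the 12 the pooled summit was shared by both replicates, beside 24.3%, and 4 had an IDR summit, beside 14.7%. The roles were compared after earlier results of these data were known, and the difference was not tested. In the alpha ring, Prosalpha4 had a summit 257 bp upstream with a signal of 78.2 in the pooled list (rank 13408), 38.5 in replicate 2 (rank 15916) and 39.4 in replicate 3 (rank 13663), in an intron of kat80 and 96 bp from its start. Prosalpha5 had a summit 127 bp upstream, nearest to its own start, with a signal of 42.1 in the pooled list (rank 25179), 24.1 in replicate 2 (rank 26578) and 19.5 in replicate 3 (rank 27478). Both replicates thus placed the Prosalpha5 summit close to the end of their lists. In the beta ring, Prosbeta1, which carries the caspase-like site, had a summit 78 bp upstream with a pooled signal of 79.2 (rank 13257) and 59.8 in replicate 2 (rank 9027). The closest replicate 3 summit was 129 bp away, so it was not counted as shared. The genes of the other proteolytic subunits, Prosbeta2 and Prosbeta5, had their closest pooled summits 7889 and 10476 bp from their starts.

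**Figure D2:**
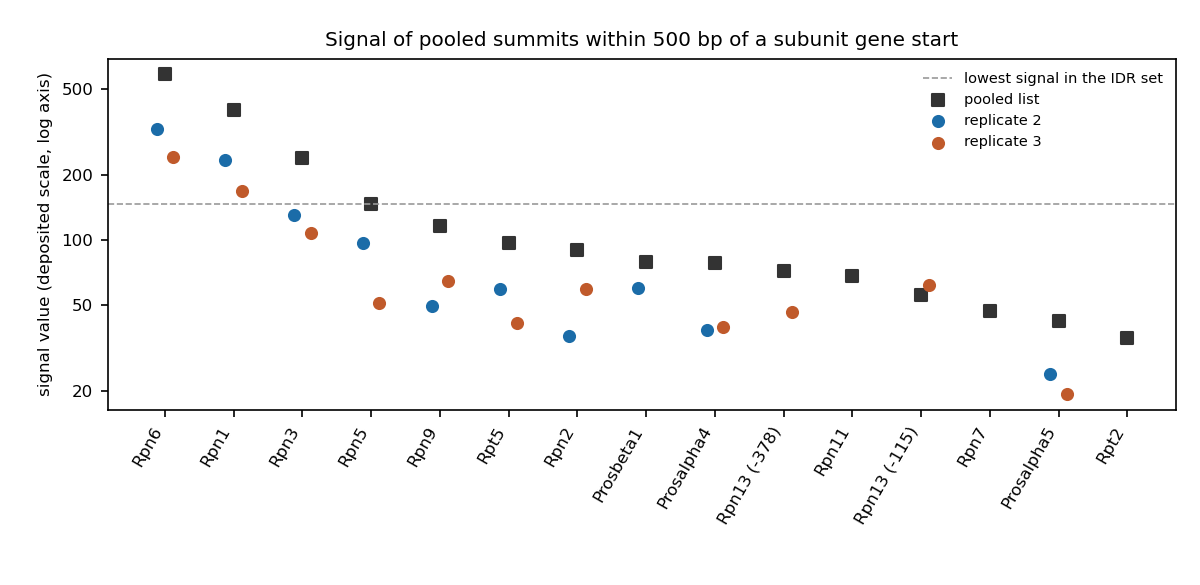
Deposited signal (log axis) of the 15 pooled promoter summits at 14 subunit genes, ordered by pooled rank, with squares for the pooled list and circles for each replicate where a summit lay within 100 bp. The dashed line is the lowest signal of the IDR set on the pooled scale, 146, which the summits of Rpn6, Rpn1 and Rpn3 clear and that of Rpn5 just reaches.

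Both libraries held most of the stronger summits. Of the 15 summits at the 14 genes, 9 were found within 100 bp in both replicates, 3 in 1 replicate and 3 in neither. The 9 belonged to Rpn6, Rpn1, Rpn3, Rpn5, Rpn9, Rpt5, Rpn2, Prosalpha4 and Prosalpha5, so 18.8% of the 48 genes (10.2 to 31.9%) had a promoter summit shared by both, beside 24.3% of all genes. The 7 summits of highest pooled signal were all shared. Taken alone, replicate 2 had promoter summits at 13 of the 48 genes (27.1%), beside 32.9% of all genes, and replicate 3 at 14 (29.2%), beside 37.4%. Neither list held the same genes as the pooled list. Replicate 2 added Prosbeta4, with a signal of 23.4 (rank 27442), and Rpt6R, with 21.9 (rank 29299). Replicate 3 added Prosbeta5, with a signal of 71.9 (rank 5980) 92 bp upstream, and Rpn12, with 35.5 (rank 15356) 33 bp upstream. For Prosbeta5 the libraries differed widely, as the closest replicate 2 summit was 10659 bp away. In all, 17 canonical genes and 1 R gene had a promoter summit in at least 1 of the 4 lists, and 30 genes had none in any.

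The closest pooled promoter summit was upstream of the closest annotated start in 14 of 14 genes (100%, 78.5 to 100%), at a median position of -113 bp, whereas it was upstream in 71.5% of the 4546 genes with one. For Rpn6 and Rpn9 this holds for the closest alternative start alone, since both summits lie in introns downstream of the first base of the gene record. With that base as the only start of each gene, 3 genes had an IDR promoter summit and 13 a pooled one, and Rpn6 was the gene lost. Many of these promoters are shared with a neighbour. Another protein-coding start lay within 500 bp of 21 of the 32 canonical genes (65.6%, 48.3 to 79.6%) and of 3 of the 16 T and R genes (18.8%, 6.59 to 43.0%), beside 30.8% of all genes. In 20 of the 21 canonical cases the neighbour points away on the opposite strand. Among the 14 genes with a promoter summit, 11 had another start within 500 bp on either strand (78.6%, 52.4 to 92.4%), beside 37.2% of the 4546 genes. In 10 of these 11 the neighbour points away. In numbers of summits, 7 of the 15 were nearest to the proteasome gene and 8 to another gene. For a summit between 2 starts, the distance alone does not tell which gene it belongs to.

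**Figure D3:**
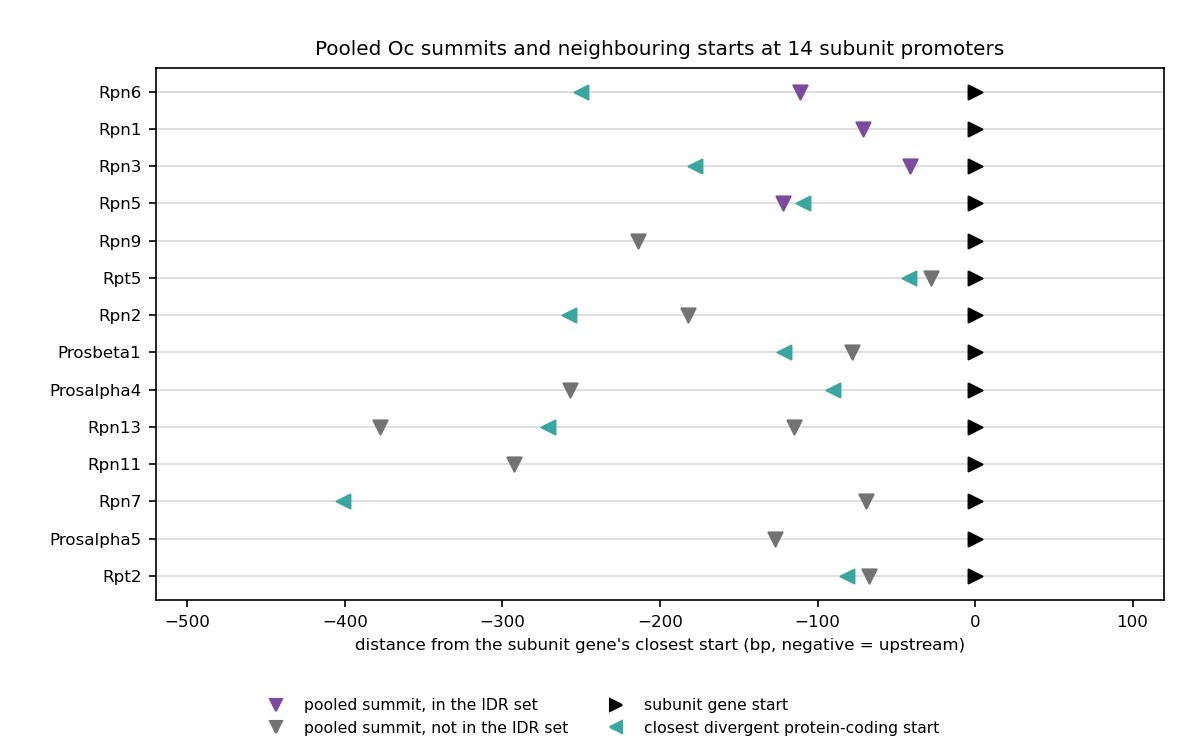
Position of pooled promoter summits at the 14 subunit genes (bp from the closest start of the gene, negative values upstream), ordered by pooled signal. Triangles pointing down are summits (purple in the IDR set, grey outside it), black arrowheads the start of the subunit gene and green arrowheads the closest divergent protein-coding start within 500 bp. All summits lie to the left of the subunit gene's start, many of them between it and the neighbour.

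The share of canonical genes with a pooled promoter summit was 11 of 21 (52.4%, 32.4 to 71.7%) for those with another start within 500 bp and 3 of 11 (27.3%, 9.75 to 56.6%) for those without. Over all protein-coding genes the shares were 39.3% with such a start and 29.5% without. A gene with a neighbour has a second promoter in reach, so the summits counted for it may sit on either one. The part of close neighbours in the counts of canonical genes and of T and R genes was not tested.

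Each summit was also counted for the gene with the nearest start. An IDR summit was nearest to 4 of the 48 genes (8.33%), beside 21.2% of all genes. These were Rpn1, Rpn3, Rpn6 and Rpn9: Rpn5 dropped out in favour of Hat1, and Rpn9 came in through summits away from its promoter. A pooled summit was nearest to 12 of 48 (25.0%, 14.9 to 38.8%), beside 42.3% of all genes, whose share lies above this interval. The 12 comprised 8 of 32 canonical genes and 4 of 16 T and R genes. A gene between close neighbours is the nearest start for few bases. The median distance to the next protein-coding start was 468 bp for the proteasome genes and 1380 bp for all genes. Whether this spacing bears on the nearest-start shares was not tested.

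Beyond the promoters, 17 pooled summits more than 500 bp away were assigned to 7 of the genes. Rpn9 had 8 of them, all in introns of another gene, among which were all 3 that belonged to the IDR set. Rpn13R had 4, in introns of CG15465 and rg, the closest 12080 bp away with a signal of 136 (rank 6509). Prosalpha6T, the gene closest outside the 500 bp limit, had a summit of signal 52.7 (rank 20335) 860 bp from its start, within its own coding exon. Just inside the limit lay the Rpn11 summit at 293 bp and the second Rpn13 summit at 378 bp. The other 4 genes were Prosbeta5R1, Prosalpha5, Rpn7 and Rpn12R.

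For the 18 canonical genes without a pooled promoter summit, the closest summit lay up to 20718 bp away, and for 9 of them it was more than 5000 bp away. Some of these were strong. Prosalpha3 had a peak of signal 397 (rank 874) at 2423 bp, Prosalpha1 one of 343 (rank 1199) at 3330 bp and Rpt6 one of 307 (rank 1513) at 3410 bp, each nearest to the start of another gene. The median distance to the closest pooled summit was 1256 bp for canonical genes (quartiles 120 and 5848), 7604 bp for T and R genes (quartiles 3512 and 11916) and 2733 bp for all genes (quartiles 207 and 8749). For all 48 it was 3370 bp in the pooled list, 3050.5 bp in replicate 2 and 2253 bp in replicate 3. Whether the T and R genes are farther from summits than other genes was not tested, and they also lie farther from other protein-coding starts, at a median of 2470 bp.

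**Figure D4:**
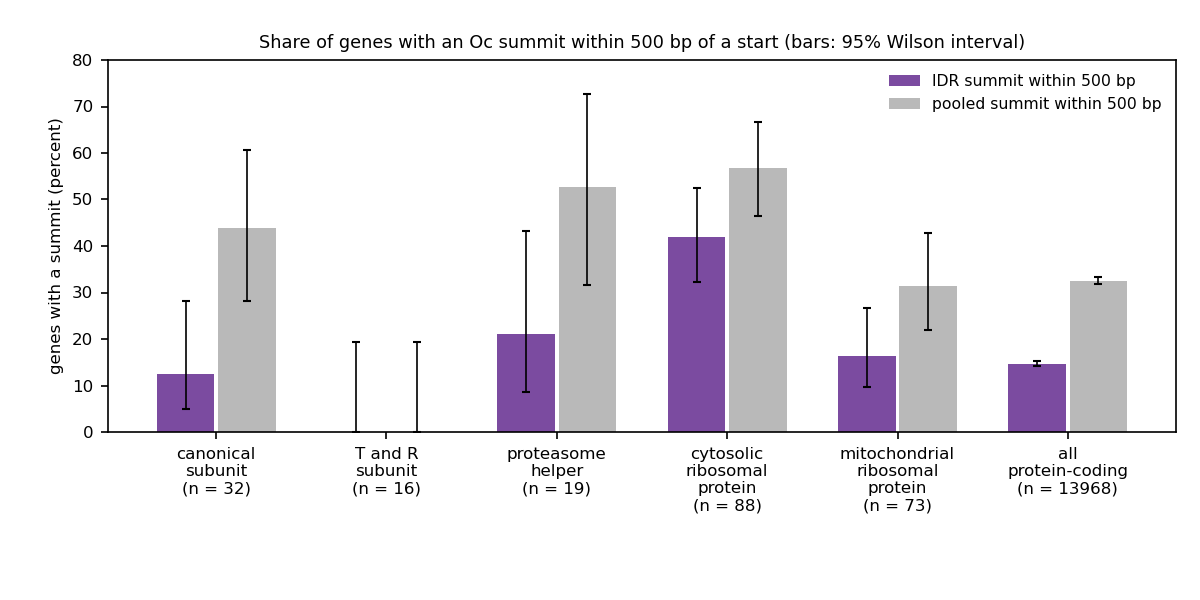
Share of genes (percent, with 95% Wilson intervals as bars) that have an IDR or a pooled summit within 500 bp of a start, for canonical and T and R proteasome genes, proteasome helper genes, cytosolic and mitochondrial ribosomal protein genes and all protein-coding genes. Canonical proteasome genes are at 12.5% and 43.8%, T and R genes at 0%, and cytosolic ribosomal protein genes at 42.0% and 56.8%.

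The proteasome genes were set beside other housekeeping complexes and beside a list of 19 genes for assembly factors, ubiquitin, shuttle factors and regulators of the proteasome. IDR promoter summits were found at 12.5% of canonical proteasome genes (4.97 to 28.1%), at 37 of 88 cytosolic ribosomal protein genes (42.0%, 32.3 to 52.5%) and at 12 of 73 mitochondrial ribosomal protein genes (16.4%, 9.66 to 26.6%). The intervals of the canonical proteasome and the cytosolic ribosomal protein genes do not overlap, and the difference was not tested. With pooled summits the shares were 43.8%, 50 of 88 (56.8%, 46.4 to 66.7%) and 23 of 73 (31.5%, 22.0 to 42.9%), and the interval of the canonical proteasome genes overlaps both of the others. The ribosomal lists took every matching symbol, with no variant copies set apart, unlike the canonical proteasome list. Over all 48 proteasome genes the shares were 8.33% (3.29 to 19.6%) with IDR summits and 29.2% (18.2 to 43.2%) with pooled ones. The median pooled signal of the closest promoter summit was 84.4 over 14 genes, beside 213 over 50 cytosolic ribosomal protein genes, 177 over 23 mitochondrial ones and 110 over all 4546 genes.

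In the list of 19, 4 genes had an IDR promoter summit (21.1%, 8.51 to 43.3%) and 10 a pooled one (52.6%, 31.7 to 72.7%). Both intervals hold the shares of all genes, 14.7% and 32.5%. Pomp, the maturation factor of the 20S core, had one 239 bp upstream with a signal of 319 (rank 1400), stronger than at any proteasome gene except Rpn6 and Rpn1. The others with an IDR summit were Ubi-p63E, a polyubiquitin gene (signal 186, rank 3869, 47 bp upstream), Keap1 (signal 194, rank 3606, 12 bp after its start) and cnc (signal 174, 245 bp upstream). Cnc belongs to the transcription factor family that raises proteasome gene expression under stress, and Keap1 restrains it. The pooled list added PI31, Uba1, Ubi-p5E, Ubqn, Ufd1 and maf-S.

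Promoter sequences were searched for 9 motifs on both strands, in 300 bases from 250 before the start of each gene record. TATCGATA, the site of DREF, a factor of housekeeping and replication genes, was in 12 of 32 canonical promoters (37.5%, 22.9 to 54.7%) and in none of the 16 T and R promoters (0 to 19.4%), beside 9.36% of all promoters. The 12 were those of Prosalpha3, Prosalpha5, Prosalpha6, Prosbeta1, Prosbeta2, Prosbeta6, Rpn3, Rpn7, Rpn9, Rpn12, Rpn13 and Rpt5, so they span the core, the base and the lid. GGTCACAC (the core promoter element known as Motif 1) was in 5 canonical promoters (15.6%), beside 7.69% of all, and TGACNNNGC (the core of the antioxidant response element) in 5 (15.6%), beside 8.62%. A TGACNNNGC match can overlap the reverse complement of GGTCACAC. TATAAA was in 13 canonical promoters (40.6%), beside 45.8% of all, GAGAGAG in none, beside 5.86%, and CAGCTG in 1 (3.12%, 0.554 to 15.7%), beside 17.6%.

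**Figure D5:**
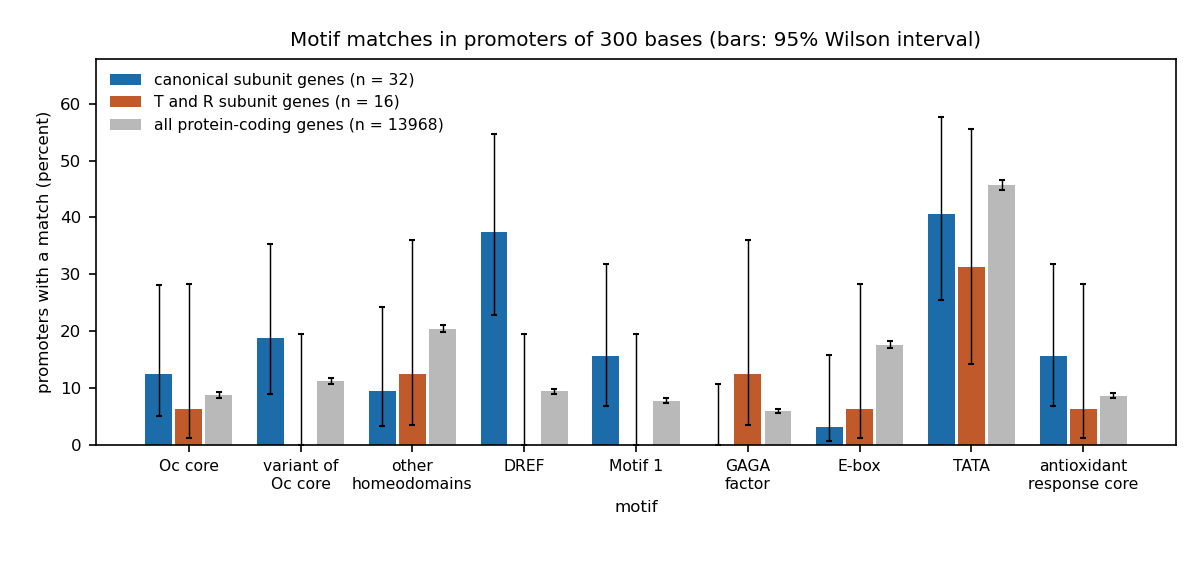
Share of promoters of 300 bases with a match on either strand (percent, bars are 95% Wilson intervals) for each of 9 motifs, in canonical proteasome genes, T and R genes and all protein-coding genes. The DREF motif is in 37.5% of canonical promoters, 0% of T and R promoters and 9.36% of all. The Oc core is in 12.5%, 6.25% and 8.73%.

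The homeodomain core TAATCC was in 4 canonical promoters (12.5%) and in 1 T and R promoter, that of Prosalpha4T2 (6.25%), beside 8.73% of all. The variant TAAGCC was in 6 canonical promoters (18.8%), beside 11.2%, and TAATTA, a site of other homeodomains, in 3 (9.38%), beside 20.4%. The canonical TAATCC sites are printed below with 10 bases on each side (RefSeq Release 6, dm6, 5′ to 3′ on the strand of the gene), because they are the sites that the family of Oc prefers. Capitals mark the motif or its reverse complement, GGATTA, and positions are counted in bases from the start of the gene record, negative before it.
Prosalpha2 at -152, chr3R:12431159-12431184, plus strand: gcactaaatcGGATTAaaaccaatta
Prosbeta7 at -123, chr3R:5358472-5358497, minus strand: acatgagtctTAATCCtaattgagtg
Prosbeta7 at -55, chr3R:5358404-5358429, minus strand: ttatcaacgaGGATTAtaaagacaaa
Rpt2 at 31, chr3R:23931512-23931537, minus strand: actattgtttTAATCCgattgcttaa
Rpt6 at -157, chrX:21315885-21315910, plus strand: acgacgggtaTAATCCtacgagtaag
Of these 4 genes only Rpt2 had a pooled promoter summit, and its own ranked 29390 of 30000. The search followed the start of the gene record alone and did not reach the Rpn6 summit, which lies by an alternative start. That summit, the strongest of the subunit genes at rank 382, has a TAATCC with its first base at -27 from it. Over all protein-coding genes, 31.2% of those with TAATCC in the promoter and 32.7% of those without had a pooled promoter summit.

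Some of the DREF sites are printed in the same way, from 3 of the 7 promoters with a pooled summit and 4 of the 5 without. The printed sites are examples and do not reflect the share with a summit. This motif was chosen because, among the 9 searched, it had the largest difference in share between canonical and all promoters.
Rpn3 at -197, chr2L:19051583-19051610, plus strand, with a summit: gttatcggagTATCGATAtcgaaaaggc
Rpn7 at 3, chr3R:22462034-22462061, minus strand, with a summit: cggtataattTATCGATAattttggggt
Rpt5 at -46, chr3R:23752820-23752847, plus strand, with a summit: tcgctgtcacTATCGATAagcgccggcg
Prosalpha6 at -16, chr2L:10221325-10221352, plus strand, without: ccgaatccctTATCGATAcccgatacac
Prosbeta2 at -10, chr3L:14999931-14999958, plus strand, without: catgaatataTATCGATAcaatatcgat
Prosbeta6 at -44, chr3L:16610445-16610472, minus strand, without: tatgtataccTATCGATAacgtttaagc
Rpn12 at -216, chr3L:16582802-16582829, plus strand, without: tgttaaaataTATCGATAttaaagcaca
Of the 12 canonical genes with the motif, 7 had a pooled promoter summit (58.3%), and of the 20 without it, 7 (35.0%). Over all protein-coding genes the shares with a pooled promoter summit were 37.2% with the motif and 32.1% without. For IDR promoter summits the order in the canonical genes was the other way, at 1 of the 12 with the motif and 3 of the 20 without. Over all protein-coding genes the IDR share was again higher with the motif than without. These splits were not tested.

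The motifs were also sought close to the summits themselves. Within 50 bp of the 15 promoter summits, TAATCC occurred at 1, that of Rpn6, with its first base at -27 from the summit, beside 4.76% of the 5709 pooled promoter summits. TAAGCC occurred at 1, that of Rpn9, and TATCGATA at 2, those of Rpt5 and Prosbeta1, beside 4.9% and 2.01%. TATAAA was within 50 bp of 5 summits, beside 13.6%, and TAATTA within 50 bp of 2, beside 5.73%. GGTCACAC and CAGCTG were each within 50 bp of 1, beside 1.75% and 5.89%. GAGAGAG and TGACNNNGC were within 50 bp of 0, beside 4.29% and 3.03%. These counts rest on few summits and were not tested. Nor was the part of the lower median GC content of these windows (31.7%, beside 43.6%). A missing match says only that these letters are not in the window.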

How the data were processed

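Both libraries are anti-GFP ChIP-seq of 1 group of embryos, and the 4 peak lists are the authors' own, on dm6 per the labels. The deposited signal values served to rank peaks within a list. The deposited -log10 q-values, given for some pooled summits, were not used to select or rank peaks. The deposited summit offsets, which are of another kind (a distance in bases from the peak's start), gave the summits. The sources used here name no aligner, peak caller, IDR threshold or read number, so precision is given as counting intervals over genes.

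Summits were set against every annotated transcript start of the protein-coding genes of Ensembl 115 (BDGP 6.54), and the nearest start gave the assigned gene. A start within 500 bp made a promoter summit, and summits of 2 lists within 100 bp counted as shared. Sequences came from RefSeq Release 6. The 95% Wilson intervals reflect counting error only. Scripts used Python 3.11.15, matplotlib 3.10.9, scipy 1.17.1, pandas 2.3.3 and numpy 2.4.6, and the placement of summits was tested on simulated data. Genes are not replicates, so no p-values were computed.

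The members, lists, motifs and comparisons were chosen with earlier results of these data known. The rule for named genes covers each member with an IDR summit within 1000 bp or nearest to it, each with a pooled promoter summit, those on either side of the 500 bp limit and listed helper genes with an IDR promoter summit. Other genes were named after their values were seen. Of the 19 helper genes 1 was found by a synonym. Alternatives changed the promoter distance, the start used, the genes considered, the strength of the lists, the shared distance, the motif window and the replicates used. Values at 1 neighbouring gene are not reported here.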

Additional observations from a re-analysis of the deposited data

How the results depend on the processing

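Over 23 results and 73 alternatives, 64 values stayed within 1.5 times the reported count or within the spread of the replicates, and 9 did not. The T and R genes with a pooled promoter summit went to 1 when the distance was 1000 bp, which is the Prosalpha6T summit, and ranged over 0 to 1 when a replicate was left out, the 1 being Rpt6R in replicate 2 alone. The median distance to the closest pooled summit ranged over 2253 to 3050.5 bp with a replicate left out, beside 3370 bp. With a window of 500 bp on both sides of the start, motif counts over the 48 genes became 17 for TAATCC (35.4%, beside 32.4% of all genes), 19 for TAAGCC (39.6%, beside 30.0%), 22 for TAATTA (45.8%, beside 46.3%), 4 for GAGAGAG (8.33%, beside 12.2%), 12 for CAGCTG (25.0%, beside 42.0%) and 19 for TGACNNNGC (39.6%, beside 27.2%), as a longer window holds more matches. The 17 genes with TAATCC were 8 of 32 canonical genes (25.0%) and 9 of 16 T and R genes (56.2%), a split that was not tested. The count for TATCGATA was 15 (31.2%, beside 12.3%). The number of genes with an IDR promoter summit stayed between 3 and 4, that with a pooled one between 10 and 15, and that with summits shared by both replicates between 6 and 10. No IDR set exists for 1 replicate, so with a replicate left out the IDR counts came from the other replicate alone. No paired analysis was possible because both libraries belong to 1 group. Precision is limited by 48 genes, 2 libraries, unknown depth and lists that end at a fixed number of peaks.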
